A study of Mus musculus with 67 samples.

Results

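Transient day 4 elements are open chromatin regions that were more accessible at day 4 than in neuromesodermal progenitors at day 3. This held in every ventral neural progenitor (NP) type profiled, and by day 6 the elements were less accessible again. They were chosen from the mean accessibility per day and cell type, pooled over agonist concentrations, on the variance-stabilized (VST) scale, a log2-like transform of normalized read counts. In each of p0-1, p2, pMN and p3 the day 4 mean had to exceed the day 3 mean by at least 1.5 and the day 6 mean of the same type by at least 1, and the highest day 4 mean had to reach 7. No upper limit was set on the day 3 level, and no minimum on the day 4 level of the other types. Of 111638 elements in the table, 696 met the rule, which is 0.623%.

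The samples came from mouse ES cells of the HM1 line, a single line, differentiated to neuromesodermal progenitors (NMPs) and then treated with retinoic acid and the Smoothened agonist SAG. Nuclei were transposed in fixed cells, and NP types were sorted by intracellular transcription factors: PAX6 without NKX6.1 for p0-1, NKX6.1 with PAX6 for p2, OLIG2 for pMN and NKX2.2 for p3. The 67 samples covered NMPs at day 3 (n = 3, 0 nM SAG) and the 4 NP types at days 4, 5 and 6, each from 2 SAG concentrations: 0 and 10 nM for p0-1, 10 and 100 nM for p2, and 100 and 500 nM for pMN and p3. Pooled over SAG there were 6, 6, 6 and 5 samples of p0-1, p2, pMN and p3 at day 4, 6, 6, 5 and 5 at day 5, and 5, 6, 4 and 4 at day 6. All NPs had received retinoic acid, so its effect cannot be told apart from time in culture, and per the study the replicates were separate differentiations of the line.

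ATAC-seq counts transposase cuts, which mark DNA that is free of nucleosomes. Enhancers open when transcription factors bind them and displace nucleosomes, and they close when binding is lost. NMPs are bipotent cells of the caudal embryo. In the neural tube, retinoic acid promotes their neural fate and Sonic hedgehog assigns ventral identity, with p3 the most ventral of these domains and p0-1 the most dorsal. SOX, HOX, PBX and MEIS factors act on enhancers of the caudal neural tube.

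Marker elements, taken as the element nearest each gene's start, mostly followed the labels. The mean VST over 5 NMP markers was 10.3 in NMPs and 8.58 to 8.79 at day 4. Olig1 and Olig2 were most accessible in pMN among the NP types of a day (mean 10.0 in day 4 pMN, but 10.1 in NMPs). The p3 markers Nkx2-9 and Foxa2 had their highest mean in p3 on each day. By gene, Nkx2-9 was higher in pMN (11.03) than in p3 (10.90) at day 6. Foxa2 was higher in NMPs (10.55) than in p3 at day 4 (10.34) or day 5 (10.38), but not at day 6 (10.66). The p2 markers Irx3 and Nkx6-1 did not set p2 apart at day 4 (11.0 VST against 11.0 to 11.1 in the other types). Samples held 9298160 to 29985325 reads in elements (median 20254011). Replicate 1 had the lowest median over the 696 elements in 16 of the 17 conditions after day 3 that held it. It was lower than the others by 0.31 VST at the median over conditions, and pMN and p3 at day 6 had no replicate 1. Without replicate 1, 2 or 3 in every group the rule chose 796, 597 or 790 elements, of which 605, 550 and 574 were among the 696.

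The sequences of 5 elements show what the set held. Each is the central 200 bp, plus strand, build mm10, from the RefSeq copy of GRCm38.p6, with matches on either strand in capitals. The first, upstream of Alkbh8, which encodes a tRNA methyltransferase, has 2 matches to the SOX word CATTGTT. The element near Cys1, which encodes a protein of the primary cilium, has an imperfect copy of the palindrome GTTAATNATTAAC followed by the MEIS word CTGTCA on the minus strand. Nectin1, an adhesion molecule, has a MEIS and a HOX-PBX word (TGATTNAT, N being any base) in its first intron. The Pou3f1 element lies by a POU factor gene of the early neural plate and has overlapping HOX-PBX words and a SOX word, and the element by Irx1, an Iroquois homeodomain gene, has a SOX and a MEIS word.
Alkbh8 chr9:3329507-3329706: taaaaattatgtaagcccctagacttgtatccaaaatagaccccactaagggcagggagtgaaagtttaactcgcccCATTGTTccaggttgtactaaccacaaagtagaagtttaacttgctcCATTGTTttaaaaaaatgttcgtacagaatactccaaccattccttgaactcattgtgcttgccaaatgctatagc
Cys1 chr12:24686428-24686627: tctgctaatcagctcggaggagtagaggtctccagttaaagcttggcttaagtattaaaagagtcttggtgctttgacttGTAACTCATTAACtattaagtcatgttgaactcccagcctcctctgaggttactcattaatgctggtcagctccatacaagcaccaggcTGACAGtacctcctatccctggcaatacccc
Nectin1 chr9:43758111-43758310: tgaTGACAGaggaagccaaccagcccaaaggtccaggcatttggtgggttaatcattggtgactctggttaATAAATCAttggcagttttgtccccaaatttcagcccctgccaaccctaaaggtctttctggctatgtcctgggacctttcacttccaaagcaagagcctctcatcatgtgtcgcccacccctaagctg
Pou3f1 chr4:124662002-124662201: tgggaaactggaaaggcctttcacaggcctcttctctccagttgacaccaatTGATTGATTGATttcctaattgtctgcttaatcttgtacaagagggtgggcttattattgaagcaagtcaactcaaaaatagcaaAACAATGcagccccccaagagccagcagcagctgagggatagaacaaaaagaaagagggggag
Irx1 chr13:71804384-71804583: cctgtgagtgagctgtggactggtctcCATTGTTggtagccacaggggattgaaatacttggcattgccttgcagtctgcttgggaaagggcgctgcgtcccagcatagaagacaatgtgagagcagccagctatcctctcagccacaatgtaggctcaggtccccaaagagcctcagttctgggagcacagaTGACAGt

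The palindrome GTTAATNATTAAC, with N any base, is described further on. One transient element, 23892 bp from the nearest start (Cstad), held it without a mismatch within its central 300 bp, and 16 more held it with 1 mismatch. The sites of 9 of the 17 are given with their mm10 position, capitals marking the letters that match and lower case the free middle base and the mismatch. The order is by the smallest day 4 excess over day 3 or day 6 in any type, largest first. The site at Rxra, a retinoid receptor gene, lies in intron 9. These sites were singled out after their values were seen.
4930544M13Rik chr13:114680594-114680606: GTTAATtATTcAC
Rps15a chr7:117956215-117956227: GTTcATcATTAAC
Pfkp chr13:6802952-6802964: GTTAATcATTAAa
Apob chr12:7820441-7820453: GTcAATgATTAAC
Tecrl chr5:83161982-83161994: GTTAATcATTtAC
Ccdc57 chr11:120929158-120929170: GTTAATgATTAAt
Mctp2 chr7:72153321-72153333: GTTAATtATTAgC
Rxra chr2:27758691-27758703: GTTAATaATTAAt
Cstad chr2:30618946-30618958: GTTAATtATTAAC

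At day 4 the transient elements were about as accessible in one NP type as in another. The median over the 696 of the mean VST was 4.55 in NMPs and, in the order p0-1, p2, pMN and p3, 7.57, 7.70, 7.63 and 7.51 at day 4. It was 6.26, 6.42, 6.55 and 6.47 at day 5 and 5.24, 5.42, 5.62 and 5.54 at day 6. In normalized counts the median element stood at 12.7 in NMPs, and over the NP types at 177 to 201 at day 4, 68.4 to 84.1 at day 5 and 27.3 to 38.0 at day 6. The levels of days 3, 4 and 6 were used by the rule and are a description. A lower count can come from fewer cells with the element open or from less opening in each cell, which these bulk libraries cannot tell apart.

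Day 5 was not part of the rule, but the day 4 and day 6 levels it is compared with were. Choosing elements for a high day 4 and a lower day 6 mean favours a day 5 value between them. The order of the days and the element counts below are therefore a description and not an independent test. The sample medians at day 5 lay under every day 4 sample and over every day 6 sample of the same type, in all 4 types. In p0-1 the lowest day 4 sample was at 7.18 and the highest day 5 sample at 6.61, and the lowest day 5 sample was at 5.87 and the highest day 6 sample at 5.46. The margin was narrowest in p3 between days 4 and 5, where the lowest day 4 sample was at 6.97 and the highest day 5 sample at 6.75. By element, 671 of the 696 (96.4%) had a lower day 5 than day 4 mean in all 4 types, and 654 (94.0%) had a day 5 mean between those of days 4 and 6 in all 4.

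**Figure D1:**
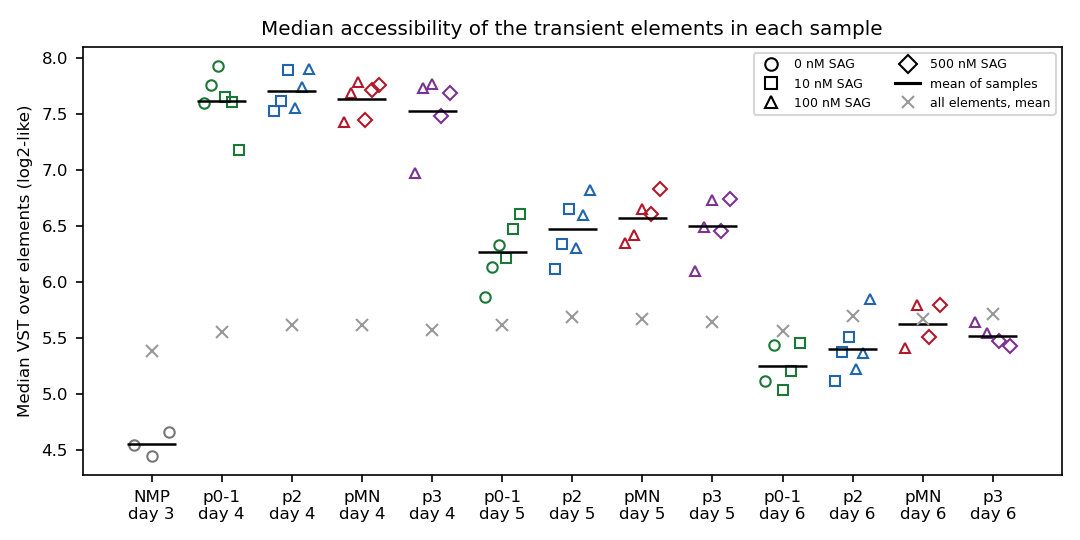
Median VST over the 696 transient elements in each sample (y axis, log2-like scale) by day and cell type (x axis), with marker shape giving the SAG concentration black lines the mean of the samples, and grey crosses the mean of the sample medians over all 111638 elements. NMP samples sit between 4.45 and 4.66, day 4 samples at 6.97 or higher, and within each type the days do not overlap. The rule required the day 4 level to exceed those of NMPs and of the last day, which favours this separation.

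The share of the day 4 to day 6 drop that was left at day 5, (day 5 - day 6)/(day 4 - day 6) on the VST scale, had a median over elements of 0.414 in p0-1 (SD over replicate numbers 0.063, n = 3), 0.430 in p2 (0.015, n = 3), 0.432 in pMN (0.012, n = 2) and 0.459 in p3 (0.095, n = 2). The order of the 4 types did not exceed these spreads. The replicate 2 and 3 values in p3 were 0.388 and 0.522, a range that holds the medians of the other types.

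The elements varied in level. Their day 4 means ran from 6.14 to 11.0 VST. The range of an element's day 4 mean over the 4 types had a median of 0.78 and was under 1 in 467 elements (67.1%), but reached 3.24. The type with the highest day 4 mean was p0-1 for 210 elements, p2 for 134, pMN for 177 and p3 for 175. The rule asks for a larger rise than drop, so day 6 levels against NMPs are a description: at day 6 the mean was above that of NMPs in all 4 types for 477 elements (68.5%) and at or under it in all 4 for 42. The margin, the smallest day 4 excess over day 3 or day 6 in any type, ran from 1.00 to 3.46 with a median of 1.52.

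The rule picked a tail of a wider set. Of 11069 elements with the day 4 rise in all 4 types, 6342 reached the level, and 3849 of these (60.7%) dropped by 1 or more to day 6 in none of the types. The drop was met in 1 type by 829 (13.1%), in 2 by 458 (7.22%), in 3 by 510 (8.04%) and in all 4 by 696 (11.0%). Of the 510 that missed it in 1 type only, 276 (54.1%) missed it in p3, 128 in p0-1, 98 in pMN and 8 in p2. Without replicate 1 in every group 450 missed it in 1 type only, 206 (45.8%) of them in p3 and 167 (37.1%) in p0-1. The threshold was sharp and its neighbours were alike: Plekhb2 (drop in p3 1.0014), Fhdc1 (drop in p3 1.0024) and Gpnmb (rise in p3 1.5032) were just inside, and Mir3970 (drop in p2 0.9994), Vps37b (drop in pMN 0.9994) and Fras1 (drop in p2 0.9981) just outside.

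Of the 12 elements with the largest margin, 4 were nearest to genes of the extracellular matrix or of adhesion, a grouping made after they were seen. The nearest start names an element here and was not shown to be its target. Intron 1 of Matn2, a matrilin gene, held the largest margin (chr15:34310355-34310906). Its normalized counts were 16.2, 24.2 and 70.0 in NMPs. At day 4 the lowest, median and highest samples were 276, 553 and 564 in p0-1, 562, 629 and 680 in p2, and 579, 698 and 748 in pMN, and the p3 samples were 331, 461, 462, 511 and 616. Every day 4 sample was above every NMP, day 5 and day 6 sample, since day 5 reached 271 and day 6 80.6.

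The Col4a2 element lies in intron 21 of the adjoining collagen IV gene Col4a1, a basement membrane component (chr8:11233902-11235367). NMP samples were at 6.74, 8.62 and 9.70. At day 4 p0-1 samples had a lowest, median and highest value of 560, 812 and 968, p2 of 618, 858 and 932, and pMN of 409, 730 and 783, with p3 samples at 113, 269, 425, 442 and 446. The lowest p3 sample lay within the day 5 range of 29.6 to 279, while day 6 samples stayed between 16.2 and 55.2.

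Lama1 encodes a laminin alpha chain of the same basement membranes, and its element lies in intron 3 (chr17:67728113-67730634). The NMP samples were at 9.44, 10.9 and 22.6. The p0-1 samples of day 4 had a lowest, median and highest value of 315, 437 and 679 and the p3 samples were at 82.8, 205, 293, 312 and 396. At day 5 the range over all types was 21.1 to 124 and at day 6 10.7 to 36.2, so that only the lowest p3 sample overlapped with day 5. The Nectin1 element shown above (chr9:43757790-43758632) ranged over 13.5 to 25.8 in NMPs, 139 to 560 at day 4, 16.2 to 171 at day 5 and 4.89 to 28.6 at day 6.

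The Alkbh8 element with the SOX words (chr9:3329364-3329851, intergenic) had the lowest peak value in NMPs and at day 6 of the 12. Its NMP samples were at 0, 1.35 and 3.23 normalized counts. Day 4 samples had a lowest, median and highest value of 76.6, 199 and 284 in p0-1, 103, 207 and 257 in p2, and 64.4, 157 and 194 in pMN, and the p3 samples were at 34.3, 91.1, 146, 150 and 161. Day 5 ranged from 6.28 to 65.9 and day 6 from 1.15 to 6.50, so the day 6 values were back near those of NMPs. The Cys1 element (chr12:24685988-24687069), with the palindrome, had 17.0, 19.4 and 25.6 in NMPs, 133 to 628 at day 4, 14.2 to 116 at day 5 and 4.89 to 23.1 at day 6.

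The remaining 6 of the 12 largest margins were of mixed kind. Grip2, a scaffold for glutamate receptors, is the nearest start to an element in intron 10 of the taurine transporter gene Slc6a6 (10.8 to 18.2 in NMPs, 163 to 559 at day 4, 9.30 to 41.2 at day 6). Nr5a2, an orphan nuclear receptor gene, lies 234.702 kb from its element, which ran from 17.2 to 28.3 in NMPs and from 155 to 872 at day 4. The elements of Uprt, Sptlc3, Hrh4 and 9430078K24Rik ran from 0 to 10.9 in NMPs and from 58.5 to 689 at day 4. In each of the 12 the day 4 samples stood above all NMP samples.

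**Figure D2:**
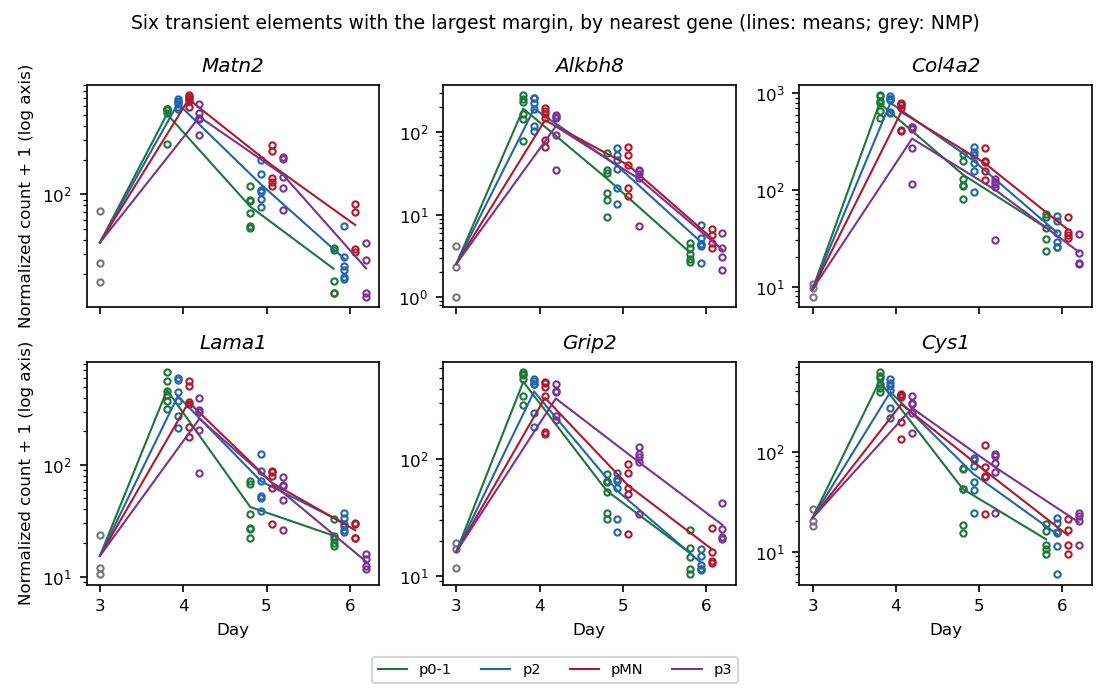
Normalized counts plus 1 (y axis, log scale) in each sample by day (x axis) for the 6 transient elements with the largest margin, named by nearest gene, with colour giving the NP type, grey the NMPs and lines the group means. The day 4 points of the Matn2 element sit between 276 and 748 and all other points at 271 or lower.

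Transient elements were found near genes of 10 of 12 patterning and signalling lists. Of 2479 elements nearest to 252 listed genes, 25 were transient (1.01%), against 0.623% of all elements. The Hox clusters held 0 of 87 and the Notch and proneural list 0 of 203, and no list held more than 4. The retinoic acid list held 3 of 169, the FGF list 4 of 232, the Cdx, Meis and Pbx list 3 of 196, the early neural list 2 of 159, the dorsoventral list 3 of 263, the late progenitor list 3 of 283, the NMP and mesoderm list 2 of 161, the pluripotency list 2 of 117, the Wnt list 2 of 341 and the hedgehog list 1 of 280.

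For retinoic acid signalling the 3 genes were a receptor, a corepressor and a degrading enzyme. The element in intron 2 of Nrip1, a corepressor of nuclear receptors, rose from 7.27 to 21.5 over NMP samples to 108 to 246 at day 4 and was at 3.53 to 36.6 at day 6. That of Rxra, the receptor partner, had 11.8, 13.5 and 27.9 in NMPs, a day 4 median of 159 in p0-1, 132 in p2 and 102 in pMN, and p3 samples at 134, 139, 158, 160 and 265. At day 6 it ran from 7.93 to 31.3. Cyp26b1, whose enzyme breaks down retinoic acid, had an element 186.026 kb away with a mean of 20.0 in NMPs and of 180 to 297 over the 4 types at day 4.

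The FGF list gave a receptor, a ligand and a pair of feedback inhibitors. Fgfr2, the receptor, had an element 131.351 kb away that ran from 6.74 to 18.3 in NMPs and whose day 4 means were 455, 236, 107 and 170 in p0-1, p2, pMN and p3. Fgf3, the ligand, had means of 14.4 in NMPs and of 439 to 642 at day 4. The elements of Dusp4, a MAP kinase phosphatase, and Spred2, a Ras pathway inhibitor, had means of 1.35 and 0.359 in NMPs and of 61.6 to 202 and 114 to 137 at day 4. Day 6 means of the 4 elements ran from 8.63 to 176, the highest being Fgf3 in p0-1.

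Among transcription factor genes, Pou3f1 was even over types, with day 4 samples from 113 to 199 against 8.09 to 17.2 in NMPs. Sox1, a marker of neural commitment, had an element with means of 21.6 in NMPs and 407 to 737 at day 4, and Sox13 an element with 44.8 in NMPs and 548 to 966 at day 4. Klf5 and Tfcp2l1, known from pluripotent cells, had elements at 4.31 and 13.1 in NMPs and at 66.1 to 127 and 87.7 to 175 at day 4. Means at day 6 were lower than at day 4 in every type, as the rule requires.

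The dorsoventral list gave elements by Irx1 and Irx3. Nkx2-9, a homeodomain gene of p3, was the 1 hedgehog list member, with an element 20.077 kb away (chr12:56632960-56633762). NMP samples had 2.15, 2.70 and 6.06. At day 4 the lowest, median and highest samples were 23.6, 31.6 and 81.2 in p0-1, 24.2, 94.9 and 136 in p2, and 143, 215 and 274 in pMN, and p3 samples were at 370, 402, 451, 468 and 499. The p3 samples were above those of the other types and the pMN samples above those of p2, while p0-1 and p2 overlapped. At day 6 pMN (22.4 to 52.5) and p3 (26.4 to 64.3) overlapped. The Irx1 element shown above had its highest day 4 mean, 303, in p0-1 and its lowest, 122, in pMN. Another transient element near Irx1, 29.277 kb away and named after its values were seen, was highest in p3. Its day 4 means were 63.7, 76.1, 66.5 and 201 in p0-1, p2, pMN and p3. The Irx3 element, named after its values were seen, was even over types, with means of 455, 443, 457 and 528 in p0-1, p2, pMN and p3. Of the Wnt list, Lef1, a mediator of Wnt signalling, had its highest day 4 mean, 253, in pMN.

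Transient elements were distal and spread over the genome. Promoters made up 6 of the 696 (0.862%), against 7.41% of all elements, 1.11% of the 2880 elements that opened by day 4 and were kept at day 6, and 7.26% of the 5373 NMP elements that closed by day 4. Intergenic elements were 362 (52.0%) and intronic ones 313 (45.0%). The median distance to the nearest start was 48856.5 bp, against 32610.5 bp for all elements, 62119.5 bp for kept elements and 15572 bp for NMP elements. They lay on 20 chromosomes and were nearest to 640 genes, of which 591 had 1 element, 42 had 2 and 7 had 3. Within 100 kb of another transient element were 88 (12.6%).

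Of the 7 genes with 3 elements, the largest margins were those of Cntn3, a contactin (3 elements over 141.997 kb), and Lrig3, a transmembrane regulator of receptor signalling (212.122 kb). Robo2, a receptor for Slit, had 3 over 298.191 kb, Timp3, an inhibitor of metalloproteinases, over 21.817 kb and Enpp6, a phosphodiesterase, over 69.811 kb. The Lrig3 element in intron 12 was the strongest, with 10.8 to 38.8 in NMPs, 809 to 1728 at day 4 and 79.4 to 387 at day 6, whereas a second one 116.992 kb away ran from 11.8 to 254 at day 4. The 3 elements nearest D930032P07Rik all lay in intron 2 of Glis3, a zinc finger gene. Mir21c was the nearest start to a further 3.

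In most of the words searched, transient elements were closer to kept elements than to NMP elements. Matches were counted in the central 300 bp on either strand, and they describe letters and not binding. The SOX word was in 13.4% of transient, 13.4% of kept, 2.88% of NMP and 7.61% of all elements. HOX-PBX words were in 9.20%, 9.90%, 2.29% and 5.99%, in the same order, and the MEIS word in 29.3%, 27.4%, 19.3% and 23.2%. The ZEB word CAGGTG was in 13.2% and 12.1% against 34.7% of NMP elements, and GGGCGG, bound by SP and KLF factors, in 3.74% and 5.14% against 20.8%. The forkhead word TGTTTNC was in 30.0% of transient and 32.2% of kept elements.

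The E-box CAGCTG, read by bHLH factors, was in 16.5% of transient, 21.0% of kept and 21.1% of all elements, and the RFX palindrome in 0 of 696, 0.94% and 0.28%. Retinoic acid receptor repeats (2 copies of AGNTCA, 5 or 2 bases apart) were in 1 and 2 of the 696 (0.144% and 0.287%), against 0.208% and 0.174% of kept and 0.211% and 0.224% of all elements. Of all 8192 words of 7 letters counted on both strands, 5 of the 12 with the largest excess in transient over kept elements were stretches of the palindrome GTTAATNATTAAC. Of these 5, AATCATT was in 11.8% against 4.83% and ATGATTA in 8.19% against 2.85%. AGTTAAT, which is not a stretch of it, was in 10.2% against 3.78%. The palindrome was then searched with up to 2 mismatches, a choice made after these counts were seen.

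**Figure D3:**
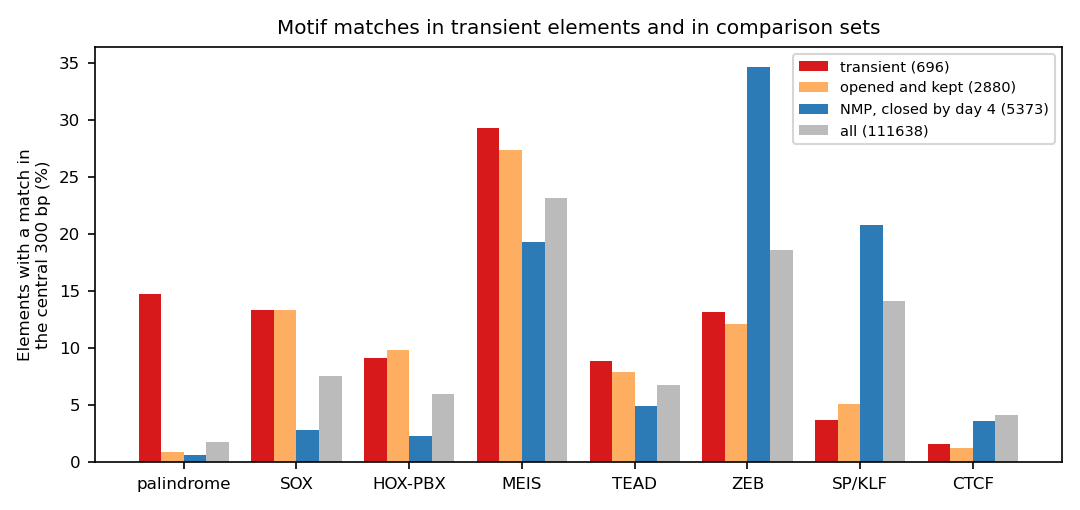
Share of elements with a match in the central 300 bp (y axis, %) for the motifs on the x axis, by set of elements. SOX matches are in 13.4% of transient and 2.88% of NMP elements, and the palindrome in 14.8% of transient and 0.903% of kept elements.

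The palindrome with up to 2 mismatches was in 103 transient elements (14.8%), against 26 kept elements (0.903%), 35 NMP elements (0.651%) and 1976 of all elements (1.77%). With up to 1 mismatch it was in 17 (2.44%) against 0.0694%, 0.0186% and 0.223%. Since the palindrome was picked from words in excess in these members, the shares are a description. The share was 17.8%, 16.6% and 10.5% among the elements chosen without replicate 1, 2 or 3. Most elements with the palindrome were not transient, since 5.21% of the 1976 were.

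Matches lay nearer the centre in transient than in kept elements. The palindrome was picked from words in excess in the central 300 bp of transient over kept elements. That choice favours such a difference, so the positions are a description. Over whole elements, 216 transient and 161 kept elements had one, and the best match was a median of 151 bp from the centre in the first and 346 bp in the second, whose median widths were 1059 and 1507 bp. Within 150 bp of the centre were 49.5% and 18.0%.

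**Figure D4:**
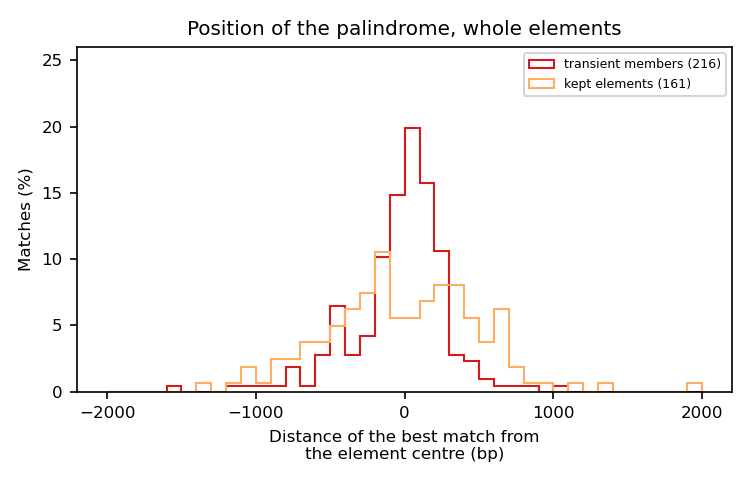
Distance of the best match to the palindrome from the element centre (x axis, bp) as a share of matches (y axis, %) in transient and kept elements. In transient elements 49.5% of the matches are within 150 bp of the centre, and in kept elements 18.0%. The palindrome was picked from central words in excess in transient over kept elements, which favours this difference.

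Most elements with a near-exact palindrome were not chosen by the rule. Over all 249 elements with up to 1 mismatch, of which 6.83% were transient, the median day 4 rise over NMPs was 1.86 in p0-1, 1.90 in p2, 1.80 in pMN and 1.71 in p3 on the VST scale, against 0.01, 0.09, 0.10 and 0.02 over the 109662 elements with more than 2 mismatches. The median drop to day 6 was 1.59, 1.42, 1.11 and 0.79, against -0.05, -0.04, -0.01 and -0.05. The palindrome was picked from words in excess in elements chosen for this rise and drop. That choice favours such values, so they are a description. Since pMN and p3 had no replicate 1 at day 6, the drop was also taken without replicate 1 in every group, a choice made after seeing the data. It was then 1.56, 1.40, 1.23 and 0.99, on medians over elements that share their samples.

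The element with the exact palindrome (Cstad) had 8.09, 9.70 and 10.8 normalized counts in NMPs. At day 4 the lowest, median and highest samples were 236, 313 and 404 in p0-1, 148, 282 and 327 in p2 and 146, 242 and 339 in pMN, and p3 samples were at 141, 201, 273, 307 and 319. At day 6 p0-1 samples were at 8.92, 9.42, 13.5, 15.5 and 18.6 and p3 samples at 47.6, 60.0, 95.9 and 98.9. The types overlapped at day 4, and at day 6 every p3 sample was above every p0-1 sample.

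Transient elements with the palindrome had a median of 4.19 VST in NMPs, and 7.76, 7.73, 7.42 and 7.49 in p0-1, p2, pMN and p3 at day 4, 6.07, 6.33, 6.33 and 6.59 at day 5, and 4.73, 4.96, 5.20 and 5.49 at day 6. The highest day 4 mean was in p0-1 for 49 of the 103, in p2 for 18, in pMN for 14 and in p3 for 22. The share of the drop left at day 5 was 0.438, 0.503, 0.504 and 0.507, against 0.411, 0.421, 0.424 and 0.450 for the 593 others. These elements were also the ones in which replicate 1 stood lowest, by 0.66 VST at the median over conditions against 0.26 in the others, and in p0-1 the replicate 1 samples alone gave 0.338 with and 0.363 without the palindrome. Over types and replicate numbers the share left was higher with the palindrome in 9 of 10. Same-numbered samples of different types deviated together, so the 10 are not independent and the count is a description.

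**Figure D5:**
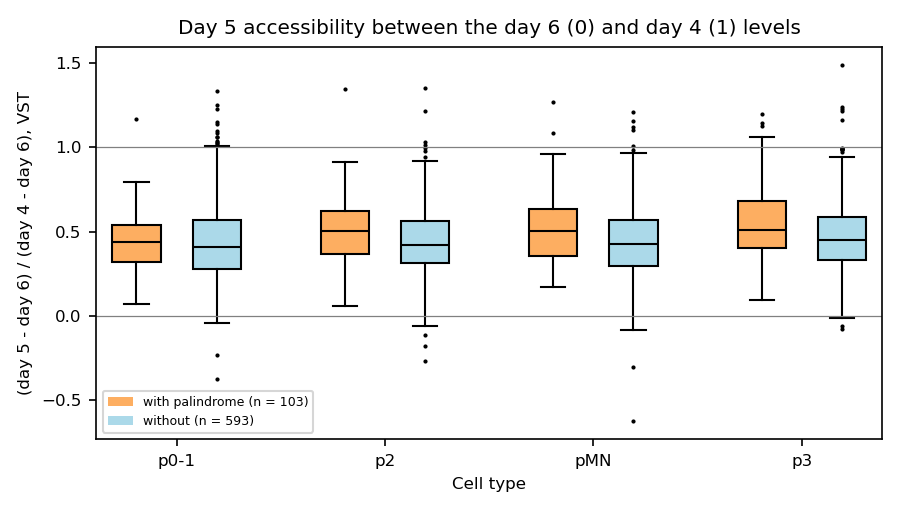
Share of the day 4 to day 6 difference left at day 5 (y axis, VST scale; 0 is the day 6 and 1 the day 4 level) by NP type (x axis) for transient elements with and without the palindrome; boxes span the middle 50% of elements, lines inside are medians, whiskers reach the last value within 1.5 box heights and points lie beyond. Medians are 0.438 to 0.507 with and 0.411 to 0.450 without the palindrome.

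Differences between NP types in the day 5 level of the elements were tested with limma on VST values. The fits used no day 4 value, so a difference called at day 5 may already have been present at day 4. The fit took in every element that averaged over 100 normalized counts across the pair of types, and calls needed a Benjamini-Hochberg adjusted p under 0.01 together with a fold above 2. Samples from 2 SAG concentrations were pooled per type without a block. Same-numbered samples deviated together (median r 0.55 to 0.65), so n counts samples and not independent differentiations. The SE and p values given do not account for this. Counts from means over SAG per replicate number are given at the end. Between 261 and 282 of the 696 passed the filter in a comparison, 342 in at least 1, so the counts are not over all transient elements, and those with more day 5 accessibility in a type passed more easily. The calls of the 4 comparisons fell on 100 different transient elements, 15 of them with 2 or more calls. The matching counts over all elements tested are not given, so whether these numbers are high cannot be said.

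Between pMN and p3, which share SAG concentrations and differ in the sorted type, 61 of 280 were called (21.8%), 23 higher and 38 lower in p3, against 19.2% of all 31887 elements tested. From p0-1 to pMN 47 of 268 were called (17.5%), 29 higher and 18 lower in pMN, against 11.3% of all. From p2 to pMN it was 7 of 282 (2.48%) against 2.35%, and from p0-1 to p2 4 of 261 (1.53%), all higher in p2, against 3.88%. The 4 became 2 without p0-1 0 nM replicate 1, 2 or 3 or p2 100 nM replicate 3, 1 without p2 100 nM replicate 1 or 2 or p2 10 nM replicate 3, and 8 without p0-1 10 nM replicate 3, and the 7 became 3 without pMN 500 nM replicate 3. The comparisons share groups and are not independent. Elements pass the filter on the mean partly through the type in which they are high. Without it the called share was 25% of the 696 against 29.7% of all for pMN against p3, 18.7% against 18.5% for p0-1 against pMN, 3.02% against 3.19% for p2 against pMN, and 3.88% against 7.06% for p0-1 against p2. The higher share of transient elements for p0-1 against pMN was thus not seen without the filter.

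The p3 differences were large at single loci. An element 136.833 kb from Hs3st3b1, which encodes a heparan sulfate sulfotransferase, had 253, 302, 365, 369 and 386 normalized counts in pMN and 27.8, 28.0, 32.1, 44.9 and 60.7 in p3. The groups were far apart (log2 fold -3.11, VST difference -2.80 ± 0.18 SE, n = 5 and 5, limma adjusted p = 5.4e-08). Elements near Chst7, another sulfotransferase gene, and 1700129C05Rik were also lower in p3, with log2 folds of -3.08 and -3.05 and limma adjusted p of 1.09e-07 and 1.33e-08.

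In the other direction, the element in intron 3 of the collagen gene Col22a1 had 9.13, 12.1, 12.9, 23.1 and 59.5 in pMN and 126, 144, 192, 244 and 341 in p3 (log2 fold 3.17, n = 5 and 5, limma adjusted p = 1.56e-05). The element near Bloodlinc, with a palindrome match, had 26.4, 30.2, 45.1, 70.0 and 70.3 in pMN and 163, 293, 298, 360 and 360 in p3 (log2 fold 2.61, limma adjusted p = 4.75e-06). Neither pair of groups overlapped, and in both elements the p3 samples were also high at day 4, at 284 to 358 for Col22a1 and 178 to 593 for Bloodlinc. Cacna1s, a calcium channel gene, gave the third (48.2 to 201 in group means, log2 fold 2.06, limma adjusted p = 3.49e-06).

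Elements higher in pMN were led by the one annotated to Sgk1, the serum- and glucocorticoid-regulated kinase (chr10:21887129-21888073). Its day 5 samples had a lowest, median and highest value of 27.5, 29.7 and 34.4 in p0-1 and 24.3, 50.7 and 107 in p2, and pMN samples were at 213, 228, 234, 358 and 447. The pMN samples stood above both other groups, by a log2 fold of 3.28 over p0-1 (VST difference 2.81 ± 0.18 SE, n = 6 and 5, limma adjusted p = 1.31e-07) and 2.37 over p2 (2.18 ± 0.27, n = 6 and 5, limma adjusted p = 0.000193). The same order held at day 4, where pMN samples had a median of 732 and those of the other types reached at most 283. It was called in pMN against p3 too, with a log2 fold of -1.05 in p3 (limma adjusted p = 0.00668).

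Gm11426 marked an element called in all 4 comparisons. Its day 5 samples had a lowest, median and highest value of 72.1, 115 and 262 in p0-1 and 211, 284 and 401 in p2, pMN samples were at 477, 549, 620, 672 and 762, and p3 samples at 48.4, 52.2, 100, 167 and 171. The p2 and p0-1 samples overlapped slightly and pMN stood above all. The step from p0-1 to p2 was a log2 fold of 1.13 (n = 6 and 6, limma adjusted p = 0.00708), that from p2 to pMN 1.08 and that from pMN to p3 -2.52. Timp3, an inhibitor of metalloproteinases, had an intron 1 element that rose from a mean of 222 in p0-1 to 528 in p2 (log2 fold 1.25, limma adjusted p = 0.00566), and Gm16551 one that rose from 56.7 to 165 (1.54, limma adjusted p = 0.00144).

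Elements lower in pMN than in p0-1 were led by that of Sfrp5, a secreted inhibitor of Wnt signalling. Its p0-1 samples had a lowest, median and highest value of 299, 432 and 1411 at day 5 and pMN samples were at 42.6, 98.1, 98.4, 146 and 161 (log2 fold -2.49, n = 6 and 5, limma adjusted p = 0.000493). The groups did not overlap. The element of Zfp229, in exon 6 of the zinc finger gene Zfp760, was lower in pMN than in p2 (log2 fold -1.22) and in p0-1 (-1.71). The Cep112 element was lower in pMN than in p0-1 by a log2 fold of -1.66, and the Fscb element lower than in p2 by -1.17. Reads of zinc finger genes with close copies may be split between them.

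Of the called elements, those with a palindrome match were 7 of 39 tested for pMN against p3, 3 higher and 4 lower in p3, and 4 of 33 for p0-1 against pMN. They were 0 of 33 for p0-1 against p2 and 0 of 38 for p2 against pMN. In the same order, 19.2%, 11.3%, 3.88% and 2.35% of all elements tested were called, and 21.8%, 17.5%, 1.53% and 2.48% of the transient ones. For p0-1 against pMN, 1 of the 4 was near Pygb, the brain glycogen phosphorylase, with p0-1 samples of day 5 from 109 to 519 and pMN samples at 660, 1092, 1402, 1911 and 1997 (log2 fold 2.22, n = 6 and 5, limma adjusted p = 0.000332). Its pMN samples were above all of p0-1.

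SAG concentration within a type gave 0 called transient elements at day 4, of 594 tested in p0-1, 652 in p2, 602 in pMN and 578 in p3, and limma called 0% of all elements tested. Without p3 100 nM replicate 3, limma called 32 of all elements in p3, and 0 transient ones. At an unadjusted p under 0.05 there were 46, 22, 11 and 5 transient elements (7.74%, 3.37%, 1.83% and 0.865%), against 2.84%, 2.10%, 0.769% and 3.64% of all elements, and limma voom on recovered reads also called 0. With the replicate number as a block these became 230, 208, 142 and 79 (38.7%, 31.9%, 23.6% and 13.7%), against 18.8%, 18.0%, 12.5% and 4.21% of all. In p0-1 the median VST difference between 10 and 0 nM was -0.28 over transient elements and 0.14 over all elements tested, with 109 of the 594 above 0. In p2, pMN and p3 the transient medians were 0.05, 0.02 and 0.07.

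When the model blocked on replicate number, limma called 5 transient elements in p0-1, all lower at 10 nM, against 0.643% of all elements, and 1 in p2 (Epha3), against 0.130%. The 5 were near Fndc3a, Gm35496, Mir691, Igf2r and Zfp229, with log2 folds from -1.01 to -1.16. For Zfp229 replicates 1, 2 and 3 had 592, 363 and 605 normalized counts at 0 nM and 500.4, 179 and 55.4 at 10 nM. The value was lower at 10 nM in each pair, and the third was far lower than the rest. This 10 nM replicate 3 sample was low over the whole set, with a median of 7.18 VST. It had the highest value of the 6 day 4 p0-1 samples at 5 of 5 NMP markers (mean 9.44 VST, others 8.36 to 8.92), and also at 3 of 3 neural progenitor, 2 of 2 pMN, 2 of 2 p3 and 3 of 3 neuron markers. Its pMN marker mean of 10.0 lay within the 9.79 to 10.2 of the pMN samples, and the part of these differences in the SAG result was not tested. Without replicate 3 the block gave 0 transient elements in p0-1, without replicate 2 it gave 5 and without replicate 1 40.

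Epha3 encodes a receptor for ephrins, and its element at 81.690 kb had 100.2, 68.7 and 187 normalized counts in p2 replicates 1, 2 and 3 at 10 nM and 211, 192 and 312 at 100 nM. It was higher at 100 nM in 3 of 3 pairs, by a log2 fold of 1.00. Without replicate 2 the block gave 0 elements in p2, and without replicate 1 or 3 it gave 1.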

How the data were processed

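The authors aligned CaTS-ATAC reads to mm10, called peaks with MACS, and deposited for 67 samples a table of DESeq2 variance-stabilized values, a log2-like score that was inverted exactly. Its smallest value, 2.70, is 0 reads, and the smallest positive step in each sample gave its size factor. Of the recovered reads, 100% were whole within 1e-06. Of 133549 annotated elements, 21911 were not in the table and were not analysed here. GRCm38.p6 matched the build, with 7425 of 8223 promoter elements (90.3%) within 5000 bp of the RefSeq gene of the same symbol. Groups followed the titles. In 15 samples the replicate numbers of title and description differ, and those of the titles were used.

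Comparisons used limma 3.58.1 (R 4.3.3, lmFit, eBayes with trend, two-sided, Benjamini-Hochberg over all elements tested). On simulated data, limma recovered 99 of 100 elements changed 2.5-fold for pMN against p3 at day 5 and 98 of 100 for SAG in pMN at day 4, with 0 false calls. The changed elements were drawn from those far above the filter on the mean, with no deviation shared by same-numbered samples. Recovery at the lower day 5 levels of transient elements, and false calls under such shared deviations, were thus not tested. Deviations from group means correlated between same-numbered samples (median r 0.55 to 0.65 at day 5 and 0.58, 0.77, 0.76 and 0.14 for SAG in p0-1, p2, pMN and p3), over 0.1 in every pair except in p3, so the numbers pair samples elsewhere. Motifs and tables used Python 3.11.15, numpy 2.4.6, pandas 2.3.3, scipy 1.17.1 and matplotlib 3.10.9. Elements named were the 12 with the largest margin, the largest margin per gene list, the 3 largest folds per direction and comparison, the neighbours of the thresholds and the genes with most elements. Others are said to have been chosen after their values were seen. The elements, gene lists and motifs were chosen with earlier results of these data known. Alternatives covered the filter, fold, scale, centring, tool, replicate block, SAG pooling and each sample left out. Some elements are not reported here.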

Additional observations from a re-analysis of the deposited data

Results flagged for a closer look

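In groups of 4 to 6 samples of a day and cell type, 11 of 156 single values stood apart from the rest of their group, by a gap above Dixon's 95% critical value. They came from 13 measures, the 12 largest-margin elements and the set median, and chance alone flags about 1 in 20 groups. Values are normalized counts.

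Day 4 p0-1 10 nM replicate 3 was low, at 276 for Matn2 (others 520 to 564) and 66.0 for Sptlc3 (others 227 to 309). Without replicate 3, at both concentrations, the 5 blocked SAG calls among transient elements in p0-1 became 0 and the 189 over all elements 22. Day 4 p3 100 nM replicate 1 was low for Sptlc3, at 80.7 (others 285 to 333). Day 5 p3 100 nM replicate 1 was low for 4 elements, at 6.28 for Alkbh8 (others 26.6 to 34.3), 29.6 for Col4a2 (others 106 to 128), 12.6 for Uprt (others 28.0 to 30.7) and 63.7 for 9430078K24Rik (others 197 to 235). Day 6 p0-1 10 nM replicate 1 was low for Nectin1, at 7.61 (others 15.5 to 17.8). Day 6 p2 100 nM replicate 3 was high for Matn2, at 52.0 (others 17.1 to 27.2). Day 6 p3 100 nM replicate 2 was high for Nr5a2, at 47.8 (others 28.2 to 30.0), and for Uprt, at 9.89 (others 2.31 to 3.05). Of the 6 samples, 3 are a replicate 1 and low.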

How the results depend on the processing

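Called transient elements at day 5 (4, 7, 61 and 47 for p0-1 against p2, p2 against pMN, pMN against p3 and p0-1 against pMN) became 27, 21, 174 and 130 without the filter on the mean (3.88%, 3.02%, 25% and 18.7%, against 7.06%, 3.19%, 29.7% and 18.5% of all elements), and 0, 1, 11 and 4 at a fold above 4 (0%, 0.355%, 3.93% and 1.49%, against 0.463%, 0.121%, 5.77% and 1.97%). A VST difference above 1 gave 4 for p2 against pMN. The mean over SAG per replicate number gave 1 for p0-1 against p2 and 3 for p2 against pMN, and with the replicate block 7 for the first. Leaving out each sample gave 1 to 8, 3 to 10, 57 to 67 and 40 to 55, and 0 to 0 for SAG, with 0 to 32 over all elements for SAG in p3. The replicate block, with the numbers of titles or descriptions, gave 5 for SAG in p0-1 and 1 in p2, and over all elements 189 and 39 calls in p0-1 and p2 against 0. In p3 it gave 5 with the title and 40 with the description numbers. It changed no other count of calls by more than 1.5 times. The blocked counts without one replicate, chosen after seeing the data, were 40, 5 and 0 in p0-1 and 1, 0 and 1 in p2 for replicates 1, 2 and 3. The cause of these differences was not tested.

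The rule gave 274 elements at thresholds of 2 and 1.5, 1566 at 1 and 0.5, 1205 without the level minimum, and 597 to 796 without a replicate number. The share left at day 5 was 0.463 in p2 and 0.459 in pMN on the log2 scale, 0.452 and 0.449 as a mean, and 0.420 in pMN with centred samples. Without a replicate number it was 0.398 to 0.459 in p0-1, 0.427 to 0.441 in p2, 0.412 to 0.436 in pMN and 0.405 to 0.488 in p3. The SP and KLF share over that of all elements (0.264) became 0.542 in whole elements and 0.163 against distal elements. The same ratio for the palindrome (8.36) became 6.25 and 11.9, and 14.6, 11.0 and 2.92 at up to 0, 1 and 3 mismatches. Neither ratio crossed 1. The order of the called shares of transient and all elements at day 5 did change with the setting. It was reversed for pMN against p3 and p2 against pMN without the filter. At a fold above 4 it was reversed for pMN against p3 and p0-1 against pMN.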
